A study of Homo sapiens with 4 samples.

Results

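The E2F and DP transcription factor genes were E2F1 to E2F8, TFDP1 and TFDP2, 10 of the 19974 protein-coding genes on chromosomes 1 to 22 and X. They were taken by name, and every BRD8 peak was assigned to a gene when its summit lay inside that gene or within 1 kb of either end. The series asked where BRD8, a bromodomain protein of the TIP60/NuA4 acetyltransferase assembly, sits in the established human colorectal cancer lines HCT116 and SW480. Each line gave 1 BRD8 ChIP-seq library and 1 input library, and the peak lists of both ChIP libraries are described here. Both lines were untreated. HCT116 cells were grown in McCoy's 5A medium and SW480 cells in Leibovitz's L-15, so line and medium cannot be told apart. With 1 ChIP library per line there is no replicate, no test between the lines is possible, and every comparison describes these libraries. A peak list holds no expression values, so the identity of the lines was not checked against marker genes.

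E2F proteins bind promoters of genes needed for S phase and are held in check by the RB family of pocket proteins. E2F1, E2F2 and E2F3 are the activators. E2F4 and E2F5 act mainly as repressors together with pocket proteins, E2F6 represses without them, and the atypical E2F7 and E2F8 repress without a DP partner. TFDP1 and TFDP2 encode DP1 and DP2, which pair with E2F1 to E2F6 to form the DNA-binding dimer. Several E2F genes are themselves targets of E2F proteins.

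The HCT116 list held 22303 peaks on these chromosomes and the SW480 list 12874. Median fold enrichment, the authors' ratio of ChIP signal to local background at the summit, was 3.70 in HCT116 and 3.34 in SW480. The median −log10 q was 5.54 in HCT116 and 4.37 in SW480. The lists give no read totals. The summit pileup (overlapping fragments) recovered from fold and p had a median of 24 in HCT116 and 26 in SW480, with a minimum over all listed peaks of 12 in HCT116 and 13 in SW480.

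All 10 members had a BRD8 peak in HCT116 and 5 had one in SW480. E2F2, E2F3, E2F5, E2F6 and E2F8 had a peak in both lines, while E2F1, E2F4, E2F7, TFDP1 and TFDP2 had a peak in HCT116 alone. Among all protein-coding genes, 52.3% had a peak by the same rule in HCT116 and 29.8% in SW480. Among protein-coding genes between 6764 and 205117 bp long, the range of the members, the shares were 57.6% and 33.0%. A peak in both lines was found at 5 of the 10 members and at 26.7% of protein-coding genes. Of protein-coding genes with a HCT116 peak, 51.1% also had a SW480 peak, so the 5 of 10 members that did were near the background. Absence from a list means that no peak passed the authors' q threshold of 0.05, not that BRD8 was absent.

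A summit within 1 kb of an end was found at 9 members in HCT116, against 44.0% of protein-coding genes, and at 5 members in SW480, against 22.1%. TFDP1 was the exception in HCT116, with its summit 1408 bp from an end. The summits just inside the 1 kb limit were those of E2F8 (947 bp in HCT116), TFDP2 (929 bp) and E2F1 (904 bp). With gene ends narrowed to 0.5 kb, the members with a gene-end peak numbered 5 in HCT116, against 34.9% of protein-coding genes, and 3 in SW480, against 17.0%. There were 18 member peaks in HCT116, of which 12 were at gene ends, against 52.8% of the 16890 peaks assigned to any protein-coding gene. In SW480 there were 6, of which 5 were, against 47.9% of 9145 such peaks.

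Counting any shared base as overlap, 5 of the 18 HCT116 member peaks met a SW480 peak, a share of 27.8% against 24.2% of all 22303 HCT116 peaks and 27.5% of those assigned to protein-coding genes. All 6 SW480 member peaks met a HCT116 peak, against 49.1% of all 12874 SW480 peaks and 59.6% of those assigned to protein-coding genes. The 2 SW480 peaks of E2F3 met the same HCT116 region, which was 4602 bp wide. With at least 50% of both regions shared, 1 member peak of each line remained, the E2F6 pair, against 7.98% of all HCT116 peaks and 13.8% of all SW480 peaks.

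**Figure D1:**
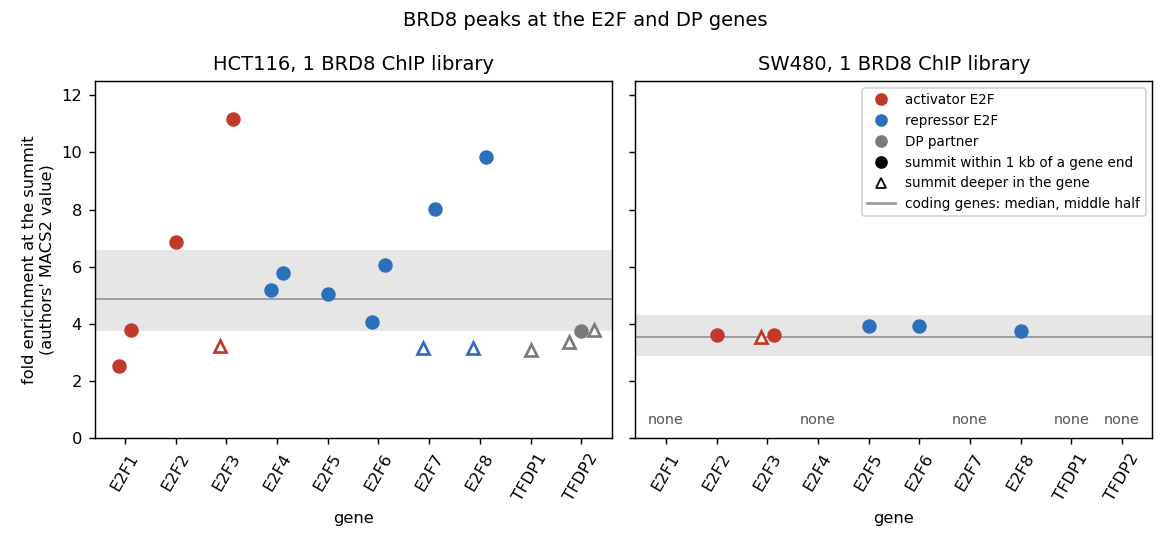
Fold enrichment (authors' value, linear axis) of every BRD8 peak at each member, with HCT116 on the left and SW480 on the right; filled circles are summits within 1 kb of a gene end, open triangles are summits deeper in the gene, and the grey line and band are the median and interquartile range of the highest fold over protein-coding genes with a peak. HCT116 folds ran from 2.52 at E2F1 to 11.2 at E2F3, whereas the 6 SW480 folds all lay between 3.54 and 3.93.

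The activator gene E2F3 had the strongest HCT116 peak of the family. Its fold was 11.2 at a −log10 q of 67.1, which ranked 418 among the best folds of the 10451 protein-coding genes with a HCT116 peak. Its region was 4602 bp wide (chr6:20400524-20405125, GRCh38), the 94th widest of the 22303. The HCT116 summit lay 134 bp downstream of the first annotated start, and the region also covered the second listed start, at 20403614. E2F3 is known for an internal promoter that gives the shorter E2F3b product. In SW480 the same stretch held 2 peaks narrower than the HCT116 region, though both were wider than the SW480 list median of 394 bp. One, 418 bp wide with a fold of 3.61, had its summit 196 bp downstream of the first start, and the other, 547 bp wide with a fold of 3.54, lay 768 bp downstream of the second. A further HCT116 peak inside E2F3, 4251 bp from the gene end, had a fold of 3.22. The first-start summits also fall in LOC124901482, an annotated coding gene on the opposite strand, 759 bp from its start in HCT116 and 697 bp in SW480.

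E2F2 had a similarly wide region in HCT116 and the narrowest member peak in SW480. The HCT116 region spanned 4432 bp (chr1:23527976-23532407), the 117th widest of the list, with a fold of 6.87 (−log10 q 23.5). The SW480 region was 236 bp wide, with a fold of 3.63 (−log10 q 7.93). The summits lay 79 bp downstream of the start in HCT116 and 121 bp in SW480.

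E2F1, the founding activator, had the weakest best peak of the E2F genes in HCT116. Its best fold was 3.79, with a −log10 q of 6.94, at the 24.3 percentile of protein-coding genes with a peak. The summit of that region (chr20:33674333-33674721) lay 904 bp beyond the 3′ end of E2F1 and 145 bp upstream of the listed start of the neighbour NECAB3. The other HCT116 peak lay 830 bp into E2F1, with a fold of 2.52 (−log10 q 3.29). In SW480 the nearest summit was 7.55 kb away from the gene.

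The promoters of the activators are shown because each held an E2F site, at E2F3 the first of its listed starts. Promoter sequences, from 250 bases before to 50 after each start, came from RefSeq (GRCh38.p14) and matched 8 of the 10 members, all but E2F5 and E2F8. They are written 5′ to 3′ on the gene's strand, E2F1 from chr20:33686336-33686635 (minus strand), E2F2 from chr1:23531184-23531483 (minus strand) and E2F3 from chr6:20401629-20401928 (plus strand, first start). Capitals mark E2F sites (TTTCCCGC, TTTCGCGC, TTTGCCGC or TTTGGCGC) and CCAAT boxes, on either strand.
E2F1: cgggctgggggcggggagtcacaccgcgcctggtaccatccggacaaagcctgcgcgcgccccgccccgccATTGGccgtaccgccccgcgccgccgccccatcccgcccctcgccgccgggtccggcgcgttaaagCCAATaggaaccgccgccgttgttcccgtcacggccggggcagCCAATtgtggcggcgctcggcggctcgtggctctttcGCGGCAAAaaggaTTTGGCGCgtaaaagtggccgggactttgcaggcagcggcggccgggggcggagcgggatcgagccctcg
E2F2: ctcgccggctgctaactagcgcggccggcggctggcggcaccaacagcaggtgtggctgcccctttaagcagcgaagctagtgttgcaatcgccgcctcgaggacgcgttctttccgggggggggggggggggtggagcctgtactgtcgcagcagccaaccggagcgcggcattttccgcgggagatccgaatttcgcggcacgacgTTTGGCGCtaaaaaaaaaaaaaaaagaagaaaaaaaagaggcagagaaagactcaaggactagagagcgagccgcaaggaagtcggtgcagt
E2F3: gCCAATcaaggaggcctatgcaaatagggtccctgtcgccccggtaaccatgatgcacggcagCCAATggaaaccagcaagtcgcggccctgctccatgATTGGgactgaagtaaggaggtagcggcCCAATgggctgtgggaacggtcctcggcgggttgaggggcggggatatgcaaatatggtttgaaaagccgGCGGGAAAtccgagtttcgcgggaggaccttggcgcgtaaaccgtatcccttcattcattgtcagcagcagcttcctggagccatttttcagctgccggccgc

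An E2F site was present in 3.33% of all 34961 listed promoters on these chromosomes, and in 4.11% of the 22132 of protein-coding genes. E2F1 held 2, of which TTTGGCGC began 20 bases upstream of the start and GCGGCAAA, a match on the other strand, 33 bases upstream. E2F2 held TTTGGCGC 42 bases upstream, and E2F3 held GCGGGAAA 53 bases upstream. CCAAT boxes, found in 34.6% of all promoters, numbered 3 in E2F1, 4 in E2F3 and 0 in E2F2. The E2F2 and E2F3 windows overlapped a BRD8 peak region, by any base, in both lines, and the E2F1 window in neither. The HCT116 regions covered both windows whole, with their E2F sites. The SW480 regions (chr1:23530993-23531228 and chr6:20401916-20402333) met only bases downstream of the starts and reached neither E2F site. A match in letters is a description of the sequence and not evidence of binding by an E2F protein.

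**Figure D2:**
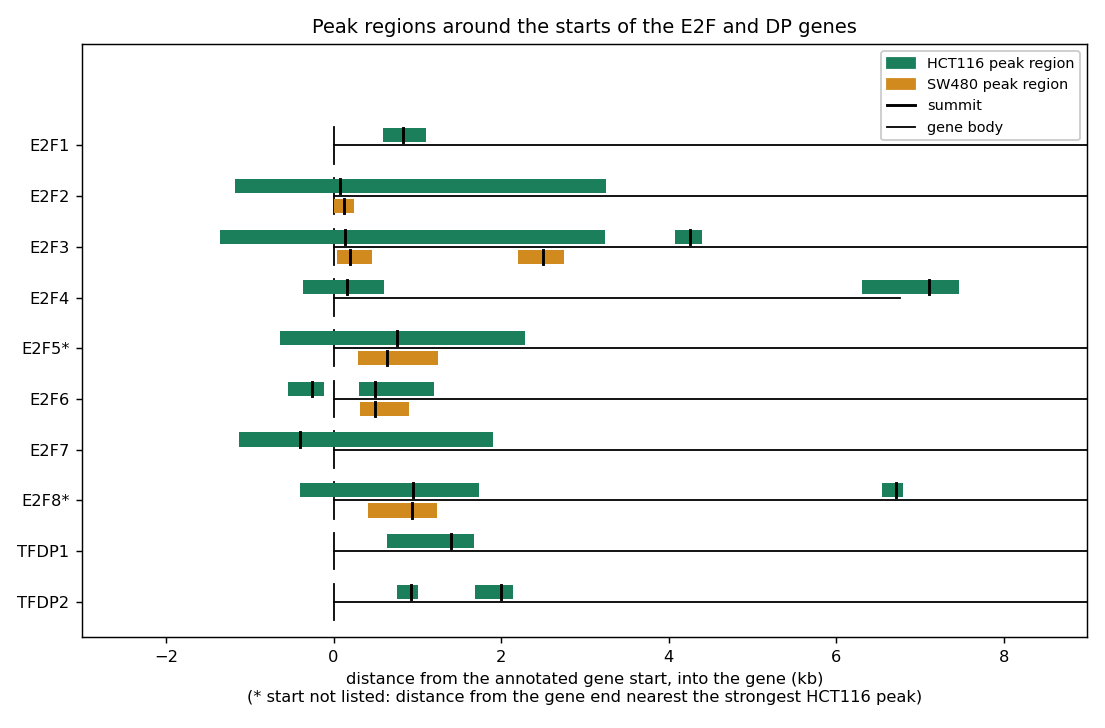
BRD8 peak regions (HCT116 above, SW480 below each gene line) by distance from the annotated gene start in kb, positive into the gene, with the summit of each region as a black tick; for E2F5 and E2F8 distance is from the gene end nearest the strongest HCT116 peak. HCT116 regions at E2F2 and E2F3 spanned 4432 and 4602 bp across the start, while the SW480 regions at these genes were 236 to 547 bp wide; peaks more than 9 kb from the starts of E2F1, E2F7 and TFDP2 fall outside the plot.

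Among the repressor genes the atypical pair stood highest in HCT116. E2F8 (chromosome 11) reached a fold of 9.84, with a −log10 q of 34.5, in a region 2139 bp wide (chr11:19239921-19242059). Its SW480 peak had a fold of 3.76, a −log10 q of 10.3 and a width of 824 bp. The summits lay 947 bp from the gene end in HCT116 and 933 bp in SW480, 14 bp apart. They also fall inside the long noncoding RNA gene CSRP3-AS1, which overlaps E2F8. A second HCT116 peak, 6710 bp from the end, had a fold of 3.15.

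E2F7 (chromosome 12) reached 8.02 in HCT116, with a −log10 q of 28.9, over 3041 bp (chr12:77063663-77066703), with the summit 404 bp upstream of the start. A second HCT116 peak 14563 bp into the gene was weak (fold 3.16, −log10 q 2.56). SW480 had no peak at E2F7, and its nearest summit was 256 kb away. E2F7 thus had a higher HCT116 fold than E2F2, E2F5 and E2F6, all of which had a SW480 peak.

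E2F4 and E2F6, which bind DNA with a DP partner, stood in the middle of the family in HCT116. E2F6 had 2 there, one 499 bp downstream of the start with a fold of 6.06 (chr2:11464959-11465851, 893 bp wide) and one 260 bp upstream with a fold of 4.06 (429 bp wide). The SW480 peak had its summit at the same base as the stronger one, chromosome 2 position 11465662, with a fold of 3.92 (−log10 q 11.5), the highest −log10 q of the SW480 member peaks. E2F4 had a peak 157 bp downstream of its start with a fold of 5.77, in a region 968 bp wide (chr16:67191788-67192755). A second HCT116 peak with a fold of 5.17 lay 343 bp beyond the other end of E2F4 and 130 bp downstream of the listed start of ELMO3. SW480 had no E2F4 peak, the nearest summit being 17.8 kb away.

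The promoters of E2F4, E2F6 and E2F7 are shown for comparison with those of the activators, since none of them held an E2F site as searched. They were read from chr16:67191905-67192204 (plus strand), chr2:11466112-11466411 (minus strand) and chr12:77065520-77065819 (minus strand), with capitals as above.
E2F4: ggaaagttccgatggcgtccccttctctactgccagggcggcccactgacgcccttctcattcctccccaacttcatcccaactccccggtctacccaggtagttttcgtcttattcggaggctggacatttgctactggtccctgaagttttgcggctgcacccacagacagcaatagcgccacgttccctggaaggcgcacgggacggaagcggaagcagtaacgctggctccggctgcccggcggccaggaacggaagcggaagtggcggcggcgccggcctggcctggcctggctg
E2F6: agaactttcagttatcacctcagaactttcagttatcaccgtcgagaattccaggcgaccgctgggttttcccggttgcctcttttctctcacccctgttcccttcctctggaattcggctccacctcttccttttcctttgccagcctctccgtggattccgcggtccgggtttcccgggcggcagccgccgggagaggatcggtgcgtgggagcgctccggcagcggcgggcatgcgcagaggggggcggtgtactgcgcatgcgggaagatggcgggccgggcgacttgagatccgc
E2F7: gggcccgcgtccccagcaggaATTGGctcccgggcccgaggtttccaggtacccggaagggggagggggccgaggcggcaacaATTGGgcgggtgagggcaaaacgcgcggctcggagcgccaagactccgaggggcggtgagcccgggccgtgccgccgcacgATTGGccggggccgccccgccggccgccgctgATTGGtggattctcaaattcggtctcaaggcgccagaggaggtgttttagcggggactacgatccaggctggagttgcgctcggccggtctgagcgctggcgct

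E2F7 held 4 CCAAT boxes, from 54 to 229 bases upstream of the start, and E2F4 and E2F6 held 0. All 3 windows overlapped a HCT116 peak region, and none a SW480 region. The CHR element TTTGAA, in 15.2% of all promoters, was found at the first start of E2F3 and at 2 internal starts of TFDP2. The ETS letters CCGGAAG (10.3%) occurred in E2F7 and the E-box CACGTG (7.27%) at the second start of E2F3. The GC box GGGCGG (45.0%) occurred in 8 of the 11 member promoters. Among protein-coding promoters the shares were 12.4% for the CHR element, 12.8% for the ETS letters, 8.34% for the E-box and 56.3% for the GC box. The remaining CCAAT boxes were 2 at the first start of TFDP2. Both strands were read for each, and 1 CCAAT box of E2F7 overlapped a GC box. In HCT116, E2F2 and E2F3 had both a site and a peak region overlapping the window, E2F1 and TFDP1 a site alone, and E2F4, E2F6 and E2F7 a peak alone. Of 11 listed promoters of 8 members, 6 overlapped a HCT116 region and 2 a SW480 region. Across protein-coding promoters, 57.3% of the 910 with an E2F site overlapped a HCT116 region (95% Wilson interval 54.0 to 60.4), against 37.6% of the 21222 without one (37.0 to 38.3). In SW480 the shares were 23.2% (20.6 to 26.0) with a site and 13.9% (13.5 to 14.4) without. These intervals cover counting error only, and base composition was not held equal between the promoters. They count every listed promoter as independent, though promoters of the same gene can meet the same region, as at E2F3 in HCT116.

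The remaining repressor, E2F5 (chromosome 8), had the widest SW480 region of the family. In HCT116 its fold was 5.04 with a −log10 q of 20.7, over 2926 bp. In SW480 its fold was 3.93 with a −log10 q of 6.96, over 956 bp. The summits lay 759 bp from the gene end in HCT116 and 643 bp in SW480, and also within 1 kb of the divergent noncoding gene E2F5-DT.

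Activators and repressors overlapped in every HCT116 measure. All 3 activators and all 5 repressors had a HCT116 peak, and 2 of 3 activators and 3 of 5 repressors had a SW480 peak. The best HCT116 folds were 3.79, 6.87 and 11.2 in the activators (median 6.87), and 5.04 to 9.84 in the repressors (median 6.06). The activators thus held both the highest and the lowest E2F value, E2F3 and E2F1, with all 5 repressors between them. The −log10 q was likewise 6.94, 23.5 and 67.1 in activators, against 16.0 to 34.5 in repressors. The best HCT116 peaks were 389 (E2F1), 4432 and 4602 bp wide in activators, with a median of 4432 bp. In repressors they were 893 to 3041 bp wide, with a median of 2139 bp. Over all protein-coding genes with a HCT116 peak the median was 1068 bp, above the widths of E2F4 and E2F6.

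In SW480 the classes were nearly level. The best folds were 3.61 and 3.63 in the bound activators E2F3 and E2F2, against 3.76, 3.92 and 3.93 in the bound repressors E2F8, E2F6 and E2F5. The repressor values were all the higher ones, but the whole range was small and has no replicate spread to be set against. By −log10 q the order was not kept, with 7.89 and 7.93 in the activators and 6.96, 10.3 and 11.5 in the repressors. The median best fold of protein-coding genes with a peak was 4.87 in HCT116 and 3.54 in SW480.

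The DP genes had weak peaks in HCT116 and none in SW480. TFDP1, which encodes the main partner DP1, had 1 peak (fold 3.09, −log10 q 6.03) over 1030 bp (chr13:113585332-113586361). Among the 10451 protein-coding genes with a HCT116 peak its fold stood at the 9.08 percentile. TFDP2 had 3 peaks with folds of 3.79, 3.76 and 3.38 and −log10 q values of 4.56, 4.51 and 3.35. They lay 61326, 929 and 2002 bp from the nearest gene end, inside this gene of 205 kb. The nearest SW480 summits were 374 kb from TFDP1 and 66.5 kb from TFDP2. The median best HCT116 fold was 3.44 for the 2 DP genes, against 6.87 for the activators and 6.06 for the repressors.

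The TFDP1 promoter is shown as the remaining one with an E2F site, GCGCGAAA on the other strand, which began 120 bases upstream of the start. It was read from chr13:113584503-113584802 (plus strand), and no peak region of either line covered it.
TFDP1: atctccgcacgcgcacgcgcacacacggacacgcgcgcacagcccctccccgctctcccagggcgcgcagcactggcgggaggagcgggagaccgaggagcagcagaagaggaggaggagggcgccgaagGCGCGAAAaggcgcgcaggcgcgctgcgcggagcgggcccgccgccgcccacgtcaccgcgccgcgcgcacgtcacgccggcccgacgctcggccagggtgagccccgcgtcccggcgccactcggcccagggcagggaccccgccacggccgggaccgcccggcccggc

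At the 5 members with a peak in both lines the summits almost coincided. The best summits were 0 bp apart at E2F6, 14 at E2F8, 42 at E2F2, 62 at E2F3 and 116 at E2F5. Across the 5336 protein-coding genes with a peak in both lines, the median distance was 252 bp. Of these, 43.2% lay within 116 bp, a limit set by the largest member distance. Those pairs could lie anywhere in a gene or its flanks, whereas the 5 member pairs were all gene-end peaks. The regions differed more in width, with the HCT116 region from 1.52 times (E2F6) to 18.8 times (E2F2) as wide as the SW480 region, a median of 3.06 times against 2.49 times over all such genes.

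The fold was higher in HCT116 at all 5, as it was at 89.0% of protein-coding genes with a peak in both lines. The ratio of HCT116 to SW480 was 3.09 at E2F3, 2.62 at E2F8, 1.89 at E2F2, 1.54 at E2F6 and 1.28 at E2F5. The median of 1.89 stood beside 1.69 over all such genes. Pileup and background, which make up the fold once 1 is added to each, differed by gene.

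E2F3 and E2F5 had more fragments at the HCT116 summit, with intervals above 1. E2F3 had 100 fragments in HCT116 and 37 in SW480, a ratio of 2.70 (95% exact interval 1.84 to 4.06). E2F5 had 59 in HCT116 and 29 in SW480, a ratio of 2.03 (1.28 to 3.29). The intervals cover counting error only, are not a test between the lines and leave out any difference in sequencing depth between the libraries. Each pileup is that of the peak of highest fold for its gene and line.

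The other 3 members had pileup ratios whose intervals held 1, and the median pileup ratio over protein-coding genes with a peak in both lines was 1.15. E2F2 had 49 fragments in HCT116 and 37 in SW480 (ratio 1.32, 0.85 to 2.09), and E2F8 had 54 in HCT116 and 45 in SW480 (1.20, 0.79 to 1.82). E2F6 had 41 fragments in HCT116 and 47 in SW480 (0.87, 0.56 to 1.36). Their local background was lower in HCT116, at 6.28 in HCT116 against 9.48 in SW480 for E2F2, 4.59 against 11.2 for E2F8 and 5.93 against 11.2 for E2F6. E2F5 was the one with a higher background in HCT116, at 10.9 against 6.64, and E2F3 had 8.03 against 9.51. A lower background in HCT116 was found at 79.0% of protein-coding genes with a peak in both lines, with a median ratio of 0.655, against 0.663 for the 5 members. The lowest background in each list was 3.75 in HCT116 and 4.09 in SW480. With each pileup divided by that lowest value, the ratio of HCT116 to SW480 was 2.95 at E2F3, 2.22 at E2F5, 1.44 at E2F2, 1.31 at E2F8 and 0.95 at E2F6, against a median of 1.25 over protein-coding genes with a peak in both lines.

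**Figure D3:**
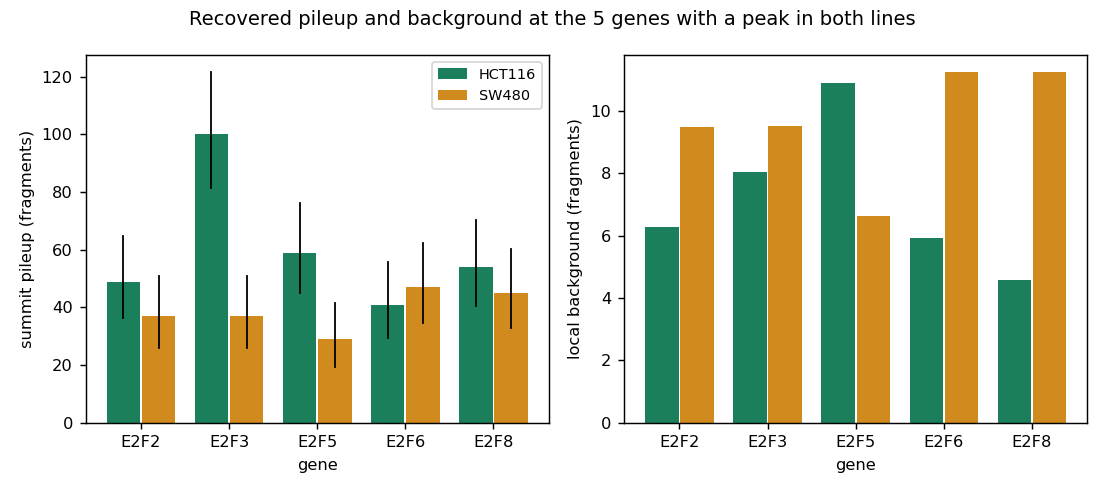
Summit pileup (left, fragments, with exact 95% Poisson intervals) and local background (right, fragments) recovered for the best peak of the 5 members with a peak in both lines, HCT116 beside SW480. E2F3 had a pileup of 100 in HCT116 beside 37 in SW480, while E2F6 had 41 beside 47 and backgrounds of 5.93 beside 11.2.

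Genes of E2F partners and targets also had BRD8 peaks. The share of all protein-coding genes with a peak was 52.3% in HCT116 and 29.8% in SW480, and 26.7% had one in both lines. All 3 pocket protein genes, which encode the proteins that bind and restrain E2Fs, had a peak in both lines. RBL1 had folds of 11.8 in HCT116 and 3.79 in SW480, RB1 8.05 and 2.16, and RBL2 3.79 and 2.21. The SW480 peaks of RB1 and RBL2 were close to the threshold, with −log10 q values of 1.90 and 1.65. Of 7 genes of the MuvB core and its partners, which form the DREAM complex with E2F4 or act in G2, 6 had a peak in HCT116 and 5 in SW480. FOXM1 had folds of 8.21 and 3.41 and RBBP4 5.71 and 4.62. LIN52 and LIN9, MuvB subunits, had 4.60 and 4.19 in HCT116 and higher values of 4.95 and 4.72 in SW480. MYBL2 had no peak in either line.

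Of 12 genes of the polycomb-type complex that contains E2F6, 10 had a peak in HCT116 and 6 in SW480. The shares of all protein-coding genes were 52.3% and 29.8%. MGA, its scaffold and a DNA-binding partner of MAX, had folds of 7.79 in HCT116 and 6.63 in SW480. WDR5 had 7.03 and 3.28, and MAX 5.44 and 3.79. RYBP had no peak in either line. Of 7 coactivator genes, 6 had a peak in HCT116 and 2 in SW480. The SW480 share of 28.6% was near the background of 29.8%. HCFC1, a host cell factor that binds E2F proteins, had 7.59 and 4.04, and KAT5, the TIP60 acetyltransferase, 5.07 and 3.65. KAT2B had no peak in either line. At a −log10 q of at least 2, 5 of the 7 coactivator genes had a HCT116 peak.

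Of 28 E2F target genes, 26 had a peak in HCT116 and 19 in SW480, against 52.3% and 29.8% of all protein-coding genes. MCM3, a subunit of the replicative helicase, had the highest fold of the list in both lines, 13.5 in HCT116 and 8.97 in SW480. Next in HCT116 was MCM7, at 11.4 in HCT116 and 2.66 in SW480, and next in SW480 was MCM2, at 10.2 in HCT116 and 7.55 in SW480. RRM2 and TP73 had no peak in either line. The median best fold of the target genes with a peak was 6.51 in HCT116 and 3.50 in SW480. For the members with a peak, 10 in HCT116 and 5 in SW480, these medians were 5.91 and 3.76. For all protein-coding genes with a peak they were 4.87 and 3.54. The other lists stood on both sides of these values. The medians were 8.05 and 2.21 for the pocket protein genes and 5.15 and 4.62 for the MuvB list. They were 5.07 and 3.47 for the E2F6 complex and 4.63 and 3.85 for the coactivators.

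**Figure D4:**
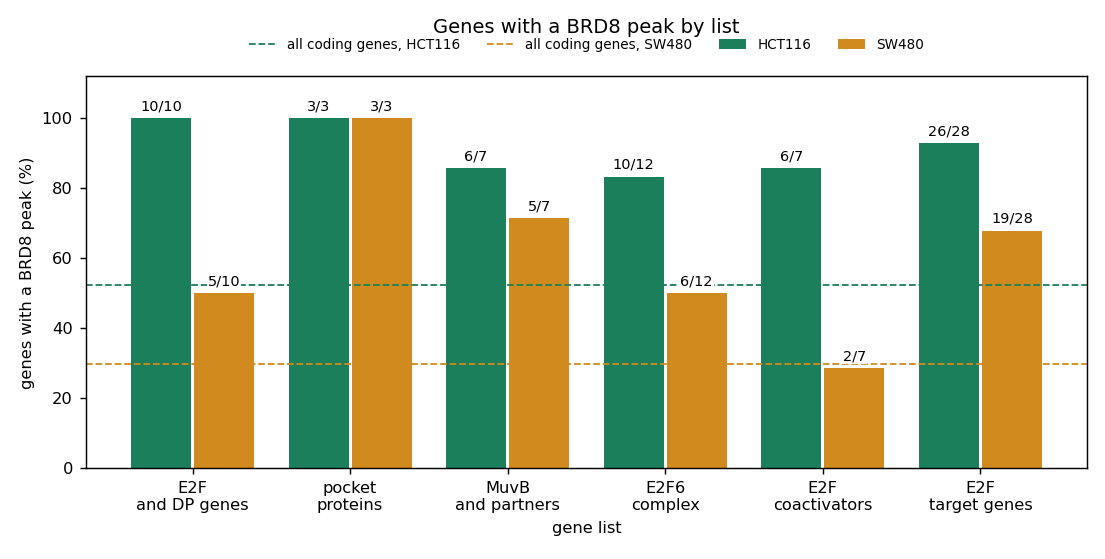
Share of genes with a BRD8 peak (inside the gene or within 1 kb, in percent, counts above the bars) for the 10 members and for each list, HCT116 beside SW480; dashed lines are the shares of all protein-coding genes, 52.3% and 29.8%. Every HCT116 bar lies above its line, and in SW480 the coactivator bar, 2 of 7, does not.

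Over these 2 libraries the genes whose pair of folds was nearest to that of E2F3, by distance on the log2 scale, were LOC124901482 (distance 0, since it holds the same summits), MDN1 (0.02) and PMS1 (0.03). MDN1 had folds of 11.1 in HCT116 and 3.67 in SW480, and PMS1 11.4 and 3.56.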

How the data were processed

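BRD8 ChIP-seq peak lists of HCT116 and SW480 were used, 1 per ChIP library. Per the labels' protocols, cells were fixed for 10 minutes in 1% formaldehyde, chromatin was cut with micrococcal nuclease, and 2 µg of polyclonal antibody was used. Per the submitters' processing notes, Trimmomatic 0.33, Bowtie2 2.4.1, MACS2 and deepTools were used with GRCh38. The sources used here do not state the read filters. The deposited ratio (fold) and −log10 p and −log10 q values are the authors' own per peak. The deposited score restates −log10 q and was not used. The deposited summit offset placed the summits.

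Peaks on chromosomes 1 to 22 and X were assigned to RefSeq genes (GRCh38.p14) with Python 3.11.15 and pandas 2.3.3. Pileup and background were solved from fold and p (scipy 1.17.1, tolerance 0.0001), for 99.996% of HCT116 and 99.99% of SW480 peaks and for all member peaks; the method was tested on simulated data. All members are named, with the 2 genes of highest fold per list and line, and lists' genes without a peak where these were 3 or fewer. The members and lists were chosen with earlier results of these data known. No test was made, since each line has 1 ChIP library. Alternatives covered the q threshold, list size, flank, peak position, overlap and class. The shares over the members' length range and the promoters under peaks were added after seeing the data.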

Additional observations from a re-analysis of the deposited data

How the results depend on the processing

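Of 172 values recomputed over 12 settings and 29 results, 163 stayed within 1.5 times the value reported, which served as the limit because no replicate spread exists. With HCT116 reduced to as many peaks as SW480, 9 members kept a HCT116 peak, all but TFDP2, against 44.2% of protein-coding genes. At a −log10 q of at least 5 the members with a peak numbered 9 in HCT116, again without TFDP2, and 5 in SW480, against 43.2% and 19.0%. With gene ends narrowed to 0.5 kb, 5 members in HCT116 and 3 in SW480 had a gene-end peak, in place of 9 and 5. With reciprocal overlap of 50%, 1 HCT116 and 1 SW480 member peak were shared, in place of 5 and 6. With E2F4 and E2F5 as the only repressors, 2 had a HCT116 peak and 1 a SW480 peak, and without E2F7 and E2F8 3 had a HCT116 peak, since fewer genes were counted. At a −log10 q of at least 2 or 5, 1 of the 3 pocket protein genes, RBL1, had a SW480 peak. No paired analysis was possible because each line has 1 ChIP library. The low pileups limit how finely the lines can be compared.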

Other observations

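Some HCT116 peaks lay near members and outside the 1 kb limit. Upstream of E2F2, summits 1860, 3000 and 3994 bp from the gene had folds of 3.15, 3.66 and 2.67. A summit 3885 bp beyond the 3′ end of TFDP2 had a fold of 3.68. A summit 4461 bp from E2F5, at the gene RBIS, had a fold of 3.05. SW480 had no further summit within 5 kb of any member. TFDP3, the DP family gene on the X chromosome, had no peak in either line.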
